A study of Cyclotella cryptica with 27 samples.

Results

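The first 15 min that the diatom Cyclotella cryptica spent in freshwater were examined by comparing transcript abundance at 15 min with that at 0 min. Strain CCMP332 was used in every group. All cultures had grown to exponential phase in artificial seawater of 24 ppt salinity at 15 °C, with 16 h light and 8 h dark each day. The freshwater groups were spun down at 800 g for 3 min and resuspended at 0 ppt and 15 °C, and the 15 min group was collected 15 min after this transfer. The 0 min group carried a time of 0 min after the same transfer, and a seawater control was kept at 24 ppt. Poly(A) RNA was sequenced. The comparison used 3 of the 6 columns labelled 15 min or 0 min, namely replicates 1 and 3 at 15 min and replicate 2 at 0 min, out of 27 columns in the series.

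The other 3 columns added no replicate. Replicate 2 at 15 min could be computed from the other 15 min columns, as 0.655 times replicate 1 plus 0.333 times replicate 3, over 5104 genes with at least 100 counts. At 0 min, replicates 1 and 3 were copies of replicate 2 shifted by a fixed number of counts in 99.9% of 5464 genes. The seawater control was likewise counted as 1 column, and 16 independent columns over 9 groups shared 1 estimate of the spread. Gene counts totalled 3460086 and 2809130 in the 15 min columns, 3198674 in the 0 min column and 3537770 in the control column. Reads placed at several sites made up 27.1% and 33.5% at 15 min, 33.2% at 0 min and 28.3% in the control. These are shares of the reads counted in a gene, placed at several sites or ambiguous between genes. Reads placed at several sites were in no gene's count, so members of near-identical families are uncertain. Separate cultures are not stated for the replicates, so p-values measure only the spread between these columns. In bulk RNA, fewer cells and less RNA per cell cannot be told apart. As markers of a diatom, 25 of 26 genes named for fucoxanthin-binding proteins and both violaxanthin de-epoxidase genes (2 of 2) were detected in all 16 columns, while silicon transporters were the name of 0 genes.

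A euryhaline diatom moved into freshwater takes up water by osmosis, swells, and brings its internal solutes down to a new balance. Cells under such stress are known to move ions across their membranes and to import, release, make or break down small organic osmolytes such as proline, other amino acids and sugars. Proteases, metabolic enzymes and stress transcription factors are among the proteins whose transcripts commonly follow. The gene identifiers of the count table carry protein names taken from the closest named proteins of other organisms, so a role given here is the role known in that organism. Names were paired with 5736 of the 12501 genes tested, or 45.9%.

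At 15 min, 76 genes were higher and 43 were lower than at 0 min, and 119 genes, or 0.952% of those tested, were called. A gene was called at a Benjamini-Hochberg adjusted p below 0.05 by edgeR's quasi-likelihood test, and unadjusted p-values were below 0.05 for 1518 genes. The higher genes were 0.608% of the tested genes and had a median log2 fold change of 1.30, with a range of 0.94 to 3.35. The lower genes were 0.344% and had a median of -1.36, with a range of -4.06 to -0.94. Over all 12501 genes the median was 0.07. Protein names belonged to 47 called genes, 33 higher and 14 lower.

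The higher genes with names included proteases, amino acid and neurotransmitter-type symporters, enzymes around pyruvate and serine, and prolyl hydroxylases. Those groupings were made after the values were seen and were not tested. The lower genes included a heat stress transcription factor, mevalonate kinase, inositol oxygenase and fructose-1,6-bisphosphatase. With another scaling the split between directions moved. Scaling by TMM made 63.9% of the called genes higher, DESeq2 size factors 55.0% (66 higher, 54 lower), and library size alone 31.5% (39 higher, 85 lower). Library size alone shifted the median of all genes by -0.11 on the log2 scale, and every one of the 119 genes kept its sign under it. Every called gene had changed by more than that shift, so a kept sign was largely fixed by the choice. Under that scaling 39 of the 76 higher and 43 of 43 lower genes stayed called, and of the 39 genes chosen by the naming rule those not called under it were CCRYP_016505, CCRYP_020254, CCRYP_004695, CCRYP_015384, CCRYP_013936, CCRYP_012039, CCRYP_016563, CCRYP_007868, CCRYP_005544 and CCRYP_006591.

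The comparison rests on few columns. Without replicate 1 at 15 min, 4 genes were called, and without replicate 3, 9 genes were called. The 0 min group has 1 column, so a change by 15 min and an unusual 0 min column cannot be told apart. Where possible, values in the seawater control are therefore given beside each result.

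**Figure D1:**
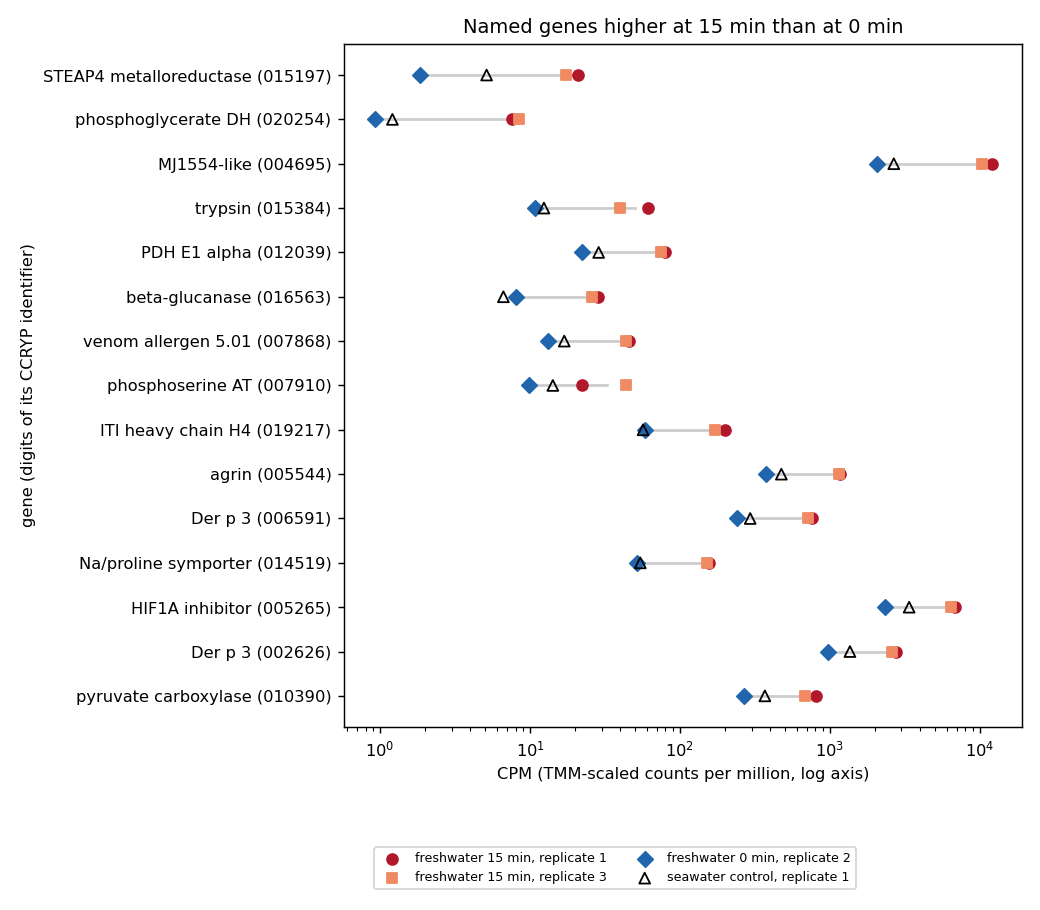
CPM (counts scaled by TMM and by library size, log axis) of the 15 named higher genes with the highest log2 fold change, in both 15 min columns, the 0 min column and the seawater control column; grey lines join the mean of the 15 min columns to the 0 min column. Both 15 min columns lie above the 0 min column and the control column in every gene shown.

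Among transporters, CCRYP_014519 is named sodium/proline symporter, which in bacteria carries proline into the cell together with sodium. It had 156 and 151 CPM (counts scaled by library size and TMM) at 15 min. The 0 min column had 52.0 CPM and the seawater control 54.4 CPM. The 15 min columns were close together, and the 0 min and control columns were close to each other. The log2 fold change from 0 min was 1.56 ± 0.29 (SE; edgeR's quasi-likelihood test, adjusted p = 0.0124). Against the seawater control CCRYP_014519 had 1.50 ± 0.28 (SE; edgeR's quasi-likelihood test, adjusted p = 0.0248), in a comparison that shares the 15 min columns and called 11 genes, or 0.088% of those tested, all higher. At 30 min its values were 66.8 and 32.2 CPM, at 1 h 25.1 CPM, and at 8 h 63.1 and 55.3 CPM. At 10 h CCRYP_014519 stood at 138, 155 and 135 CPM, a level similar to that at 15 min.

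Further transporter names among the higher genes, outside the rule that chose the named genes and picked after their values were seen, were of sodium-driven carriers. CCRYP_006049, named sodium-dependent serotonin transporter after the animal neurotransmitter carrier, had 605 and 535 CPM at 15 min, against 236 CPM at 0 min and 318 CPM in the control. CCRYP_019130, named neutral amino acid transporter B(0), had 1194 and 1057 CPM at 15 min, against 522 CPM at 0 min and 726 CPM in the control. CCRYP_001528, named for a sodium-coupled neutral amino acid transporter, had 63.5 and 80.9 CPM at 15 min, against 32.6 CPM at 0 min and 48.9 CPM in the control. Their log2 fold changes from 0 min were 1.27 ± 0.25, 1.11 ± 0.26 and 1.14 ± 0.26 (SE), all called. CCRYP_001528 differed from the other 2 afterwards, with 99.1 and 87.9 CPM at 30 min and 102 CPM at 1 h.

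One transporter fell. CCRYP_000833, named mitochondrial basic amino acids transporter, which in mammals carries arginine and lysine into mitochondria, had 13.6 and 23.5 CPM at 15 min, against 47.1 CPM at 0 min and 12.1 CPM in the control. Only the 0 min column was high among these 4, and the log2 fold change was -1.36 ± 0.30 (SE; edgeR's quasi-likelihood test, adjusted p = 0.0233). Of the 263 tested genes in the list of nutrient and metabolite transporters, 4 were called higher and 1 lower, with a median log2 fold change of 0.21. By words in the name, 25 tested genes were amino acid transporters or sodium-coupled symporters, of which these 4 rose and this 1 fell, and 22 of 25 had a positive log2 fold change, against 57.7% of all tested genes. In the list of ion channels, exchangers and proton pumps, 0 of 102 were called, and the median log2 fold change was 0.14. Both 15 min columns were above the 0 min column in 60 of these genes and below it in 14. Over all tested genes those shares were 42.7% and 31.8%. The list was made from words in the names and does not hold CCRYP_015088, named for an NMDA receptor subunit and called higher. The gene closest to the threshold there, CCRYP_012373, a V-type proton ATPase subunit that is part of the vacuolar proton pump, had a log2 fold change of -1.15 ± 0.28 (SE; edgeR's quasi-likelihood test, adjusted p = 0.0527).

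The largest log2 fold change of any higher gene belonged to CCRYP_015197, named metalloreductase STEAP4, which in mammals reduces iron and copper ions. It had 20.9 and 17.3 CPM at 15 min, from 69 and 45 counts, against 1.85 CPM at 0 min, from 6 counts. The control had 5.13 CPM, so the 0 min column was below the control and the 15 min columns above it. The log2 fold change was 3.35 ± 0.57 (SE; edgeR's quasi-likelihood test, adjusted p = 0.0107). Against the seawater control it was 1.89, which was not called (edgeR's quasi-likelihood test, adjusted p = 0.0930). From 30 min to 8 h CCRYP_015197 lay between 2.05 and 5.57 CPM, and at 10 h it had 12.5, 8.37 and 14.7 CPM.

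Several higher genes bore the names of serine proteases. CCRYP_015384, named trypsin, a serine protease that cuts after lysine and arginine, had 60.8 and 40.1 CPM at 15 min, against 10.8 CPM at 0 min and 12.4 CPM in the control. Its log2 fold change was 2.23 ± 0.50 (SE; edgeR's quasi-likelihood test, adjusted p = 0.0379). A pair of genes bore the name of mite allergen Der p 3, a trypsin-like protease of house dust mites. CCRYP_006591 had 761 and 715 CPM at 15 min, against 239 CPM at 0 min and 294 CPM in the control. CCRYP_002626 had 2761 and 2610 CPM at 15 min, against 964 CPM at 0 min and 1360 CPM in the control. In all 3 genes the columns at 15 min were above both other columns, and the log2 fold changes of the Der p 3 genes were 1.62 ± 0.32 and 1.48 ± 0.31 (SE).

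Further called protease names were CCRYP_002483 (trypsin) and CCRYP_004505 (trypsin-1), with log2 fold changes of 1.43 ± 0.28 and 1.34 ± 0.29 (SE). CCRYP_002483 had 340 and 330 CPM at 15 min, against 124 CPM at 0 min and 159 CPM in the control. Unlike the others it was still at 333 and 199 CPM at 30 min. Of 24 tested genes named as trypsins or trypsin-like allergens, these 5 were called higher and 0 lower. The median log2 fold change of the 24 was 0.17, with 14 positive and 9 negative. Over all tested genes, 0.608% were called higher and 57.7% were positive. CCRYP_019217, named for inter-alpha-trypsin inhibitor heavy chain H4, a plasma protein of mammals, had 201 and 170 CPM at 15 min, against 58.8 CPM at 0 min and 56.8 CPM in the control. Its log2 fold changes were 1.66 ± 0.28 from 0 min and 1.71 ± 0.28 from the control (SE; edgeR's quasi-likelihood test, adjusted p = 0.0107 and 0.00642).

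Peptide-clearing proteases of another family were also higher. CCRYP_013265 and CCRYP_017375 are both named presequence protease 1, which in plants degrades targeting peptides inside chloroplasts and mitochondria. CCRYP_013265 had 148 and 151 CPM at 15 min, against 60.6 CPM at 0 min and 83.9 CPM in the control. CCRYP_017375 had 230 and 195 CPM at 15 min, against 89.5 CPM at 0 min and 125 CPM in the control. CCRYP_005708, named insulin-degrading enzyme, a related metalloprotease, had 521 and 501 CPM at 15 min, against 242 CPM at 0 min and 301 CPM in the control. The log2 fold changes of these genes were 1.30 ± 0.24, 1.25 ± 0.26 and 1.08 ± 0.24 (SE). The 7 tested genes with either name included 3 that were called, and the other 4 had log2 fold changes between -0.02 and 0.33. In the list of proteases and peptidases, 3 of 205 tested genes were called, all higher, with a median of 0.18. That list holds some trypsins that were not called, such as CCRYP_002627, and none of the called ones.

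Some of the higher genes were named for central carbon enzymes around pyruvate, a grouping made after the values were seen. Other genes with such names were not counted apart. CCRYP_012039 is named for the E1 alpha subunit of pyruvate dehydrogenase, which turns pyruvate into acetyl-CoA. It had 78.9 and 74.4 CPM at 15 min, against 22.2 CPM at 0 min and 28.7 CPM in the control, with a log2 fold change of 1.79 ± 0.35 (SE; edgeR's quasi-likelihood test, adjusted p = 0.0205). CCRYP_010390, named pyruvate carboxylase, which makes oxaloacetate from pyruvate, had 804 and 678 CPM at 15 min, against 268 CPM at 0 min and 368 CPM in the control. Its log2 fold change was 1.47 ± 0.30 (SE; edgeR's quasi-likelihood test, adjusted p = 0.0197). At 30 min both genes were below their 15 min levels, with 28.8 and 11.9 CPM for CCRYP_012039 and 324 and 178 CPM for CCRYP_010390. At 4 h the values were above those at 15 min, with 157 and 213 CPM for CCRYP_012039 and 1160 and 1486 CPM for CCRYP_010390.

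Serine synthesis was represented by the first enzymes of the pathway that starts from 3-phosphoglycerate. CCRYP_020254, named D-3-phosphoglycerate dehydrogenase, had 25 and 22 counts at 15 min, against 3 counts at 0 min and 4 counts in the control. After scaling the 15 min to 0 min ratio was 8.63, with an exact 95% interval of 2.78 to 43.3 that covers counting error only. Its log2 fold change of 3.07 ± 0.75 (SE; edgeR's quasi-likelihood test, adjusted p = 0.0439) was not called with replicate 1 or 3 of 0 min in place of replicate 2. CCRYP_007910, named phosphoserine aminotransferase, the next step, had 22.1 and 43.6 CPM at 15 min, against 9.85 CPM at 0 min and 14.2 CPM in the control. The 15 min columns were far apart in that gene, and its log2 fold change was 1.71 ± 0.37 (SE; edgeR's quasi-likelihood test, adjusted p = 0.0221). It went on to 76.0 and 62.1 CPM at 30 min and 85.4 CPM at 1 h, and at 4 h had 8.94 and 10.0 CPM.

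Other genes of that pathway were not called. CCRYP_010740 and CCRYP_019760, also named for phosphoglycerate dehydrogenase, had log2 fold changes of 0.73 ± 0.47 and 0.88 ± 0.45 (SE). CCRYP_003564 of the same name had -0.67 ± 0.40, and CCRYP_020637, named for the last enzyme, phosphoserine phosphatase, had 0.20 ± 0.29 (SE). In the list of central carbon metabolism, 3 of 143 tested genes were called higher and 1 lower. Their median log2 fold change was 0.26, and 91 of 143 had both 15 min columns above the 0 min column, against 42.7% of all tested genes. The lower one, CCRYP_018554, is named fructose-1,6-bisphosphatase, an enzyme of gluconeogenesis and the Calvin cycle. It had 246 and 219 CPM at 15 min, against 538 CPM at 0 min and 249 CPM in the control, with a log2 fold change of -1.21 ± 0.28 (SE; edgeR's quasi-likelihood test, adjusted p = 0.0400).

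Oxygenases that use 2-oxoglutarate supplied further higher genes. CCRYP_005265, named hypoxia-inducible factor 1-alpha inhibitor, an asparagine hydroxylase in mammals, had 6870 and 6429 CPM at 15 min, against 2335 CPM at 0 min and 3377 CPM in the control. CCRYP_006220 and CCRYP_011391, named for prolyl 4-hydroxylases of Arabidopsis, had log2 fold changes of 1.37 ± 0.31 and 1.25 ± 0.26 (SE), against 1.51 ± 0.34 for CCRYP_005265. CCRYP_006220 had 644 and 558 CPM at 15 min, against 232 CPM at 0 min and 318 CPM in the control. The 30 tested genes with prolyl 4-hydroxylase in their names included 2 that were called, both higher, and 26 with a positive log2 fold change. Over all tested genes, 0.608% were called higher and 57.7% were positive. The median of the 30 was 0.32.

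Names of secreted or extracellular proteins were also among the higher genes. CCRYP_005544, named agrin, a proteoglycan of the matrix between cells in vertebrates, had 1171 and 1156 CPM at 15 min, against 375 CPM at 0 min and 474 CPM in the control. CCRYP_007868, named for a wasp venom allergen, had 45.7 and 43.6 CPM at 15 min, against 13.2 CPM at 0 min and 16.9 CPM in the control. CCRYP_016563, named beta-glucanase, an enzyme that breaks mixed-linkage glucans, had 28.4 and 25.8 CPM at 15 min, against 8.00 CPM at 0 min and 6.64 CPM in the control. Their log2 fold changes were 1.63 ± 0.33, 1.75 ± 0.40 and 1.76 ± 0.44 (SE). CCRYP_016563 was the 1 called gene among 46 tested genes for cell wall and silica.

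The most abundant named gene that rose was CCRYP_004695, named only as uncharacterized protein MJ1554 after an archaeal protein. It had 39624 and 26859 counts at 15 min, or 11981 and 10353 CPM, against 2048 CPM at 0 min and 2667 CPM in the control. The log2 fold change was 2.45 ± 0.54 (SE; edgeR's quasi-likelihood test, adjusted p = 0.0416), and against the control it was 2.07 and not called (edgeR's quasi-likelihood test, adjusted p = 0.131). CCRYP_004695 was not called either with replicate 1 or 3 of 0 min in place of replicate 2. Its 30 min columns held 4920 and 1438 CPM and its 1 h column 1004 CPM.

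Further named genes that rose were found by reading their names after the values were seen. CCRYP_001740 is named for malonate-CoA ligase ACSF3, which in mammals activates malonate in mitochondria, and had 450 and 389 CPM at 15 min, against 160 CPM at 0 min and 240 CPM in the control. CCRYP_020427, named opine dehydrogenase, which joins an amino acid to a keto acid, had 67.7 and 55.1 CPM at 15 min, against 24.3 CPM at 0 min and 31.7 CPM in the control. CCRYP_015088, named for the NMDA receptor subunit 2C, a glutamate-gated channel of neurons, had 165 and 155 CPM at 15 min, against 69.2 CPM at 0 min and 77.9 CPM in the control. CCRYP_013766, named transitional endoplasmic reticulum ATPase, a protein-unfolding enzyme, had 52.9 and 51.7 CPM at 15 min, against 24.6 CPM at 0 min and 34.7 CPM in the control. These 4 had log2 fold changes of 1.39 ± 0.29, 1.34 ± 0.27, 1.21 ± 0.22 and 1.09 ± 0.25 (SE). The remaining named higher genes were CCRYP_002835 (MEAK7), CCRYP_015058 (pyridoxal reductase), CCRYP_009049 and CCRYP_012651 (a fatty acid methyltransferase of mycobacteria), at 1.24, 1.31, 1.10 and 1.03. Against the control these had 0.91, 0.96, 0.58 and 0.82 at 15 min, and none was called.

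Genes without a protein name made up the rest of the higher set, and the 5 with the highest log2 fold changes were CCRYP_016505, CCRYP_019139, CCRYP_013936, CCRYP_009726 and CCRYP_012761. CCRYP_012761 had 215 and 246 CPM at 15 min, against 65.8 CPM at 0 min and 70.4 CPM in the control. It was called against 0 min at 1.81 ± 0.28 and against the control at 1.71 ± 0.28 (SE; edgeR's quasi-likelihood test, adjusted p = 0.0107 and 0.00639), and it stayed called when either 15 min column was left out. CCRYP_019139 had 24.5 and 13.9 CPM at 15 min, against 2.15 CPM at 0 min and 3.02 CPM in the control. CCRYP_009726 had 42.6 and 40.5 CPM at 15 min, against 11.1 CPM at 0 min and 17.5 CPM in the control. CCRYP_013936 had 76.8 and 44.3 CPM at 15 min, against 15.1 CPM at 0 min and 16.6 CPM in the control. CCRYP_016505 was the exception. Its 19 and 19 counts at 15 min stood against 2 counts at 0 min but 26 counts in the control, so only the 0 min column was low.

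**Figure D2:**
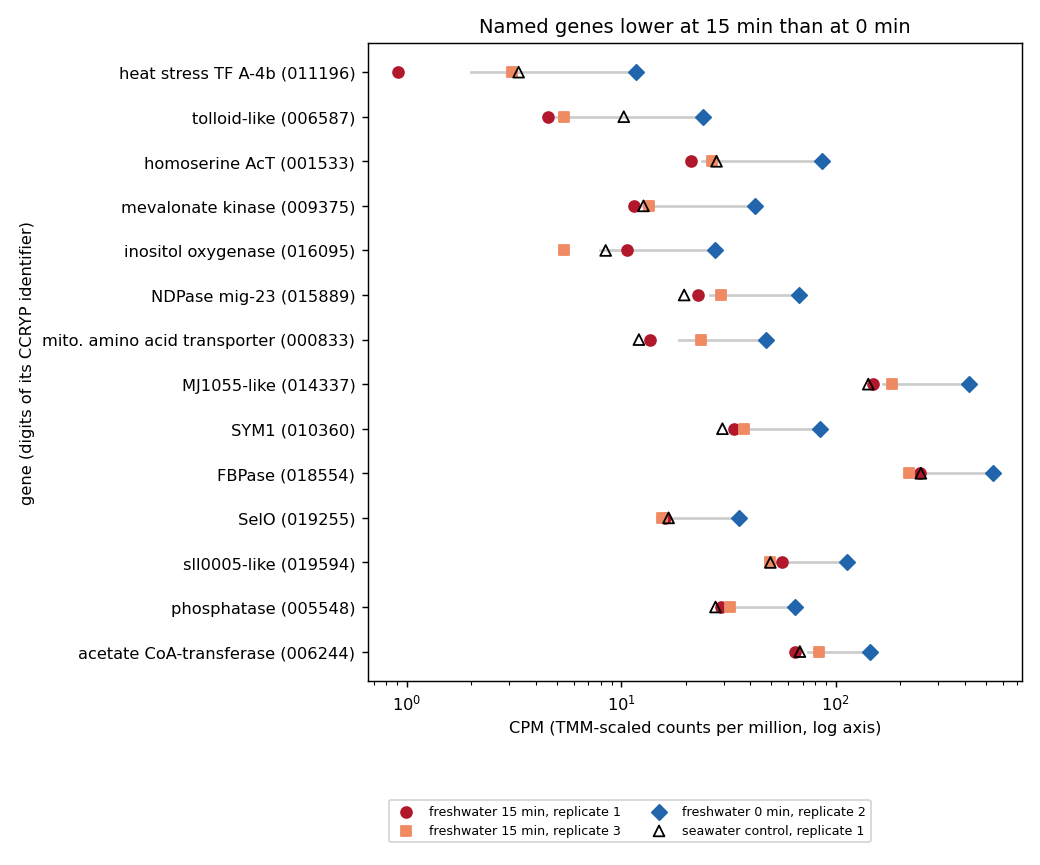
CPM (scaled by TMM, log axis) of the 14 named lower genes in both 15 min columns, the 0 min column and the seawater control column; grey lines join the mean of the 15 min columns to the 0 min column. The 0 min column is the highest of the 4 in every gene shown, and the control lies close to the 15 min columns in most of them.

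The lower genes followed another arrangement of the columns. In 25 of 43 both 15 min columns were below the seawater control, against 36.7% of all tested genes, and in 43 of 43 the 0 min column was above it, against 44.5%. Their median log2 fold change against the control was -0.19 at 15 min and 1.26 at 0 min. Among the higher genes both 15 min columns were above the control in 75 of 76, against 38.3% of all tested genes, with a median of 0.95. The 0 min column was below the control in 69 of 76, against 55.4%, with a median of -0.38. All these values share columns with the comparison that chose the genes and are a description. At 15 min against the control, edgeR's quasi-likelihood test called 4 of the 76 higher genes, all higher, and 0 of the 43 lower genes. Over all tested genes it called 0.088%. At 0 min against the control it called 0 of 12501 genes, although unadjusted p-values were below 0.05 for 1468 genes, and DESeq2 called 56.

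CCRYP_011196, named heat stress transcription factor A-4b after a plant activator of heat and stress genes, was the named gene with the lowest log2 fold change. It had 3 and 8 counts at 15 min, against 38 counts at 0 min and 11 counts in the control, or 0.907 and 3.08 CPM against 11.7 and 3.32 CPM. The log2 fold change was -2.61 ± 0.61 (SE; edgeR's quasi-likelihood test, adjusted p = 0.0345), and it was not called with replicate 1 or 3 of 0 min in place of replicate 2. At 10 h CCRYP_011196 had 7.65, 5.86 and 9.38 CPM. It was the 1 called gene of 56 tested heat shock transcription factors. That list had a median log2 fold change of -0.44, with both 15 min columns below the 0 min column in 37 genes and above it in 10. Over all tested genes, 31.8% had both columns below and 42.7% both above. Against the control the list's median was 0.16 at 15 min and 0.47 at 0 min.

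Several of the lower genes were named for metabolic enzymes, a grouping made after the values were seen. CCRYP_009375, named mevalonate kinase, which acts in the synthesis of isoprenoids and sterols, had 11.5 and 13.5 CPM at 15 min, against 41.8 CPM at 0 min and 12.7 CPM in the control. The control lay between the 15 min columns, and the log2 fold change was -1.75 ± 0.33 (SE; edgeR's quasi-likelihood test, adjusted p = 0.0134). CCRYP_016095, named inositol oxygenase, which breaks down myo-inositol, a sugar alcohol that serves many cells as an osmolyte, had 10.6 and 5.40 CPM at 15 min, against 27.4 CPM at 0 min and 8.45 CPM in the control. Its log2 fold change was -1.74 ± 0.38 (SE; edgeR's quasi-likelihood test, adjusted p = 0.0221). CCRYP_001533, named homoserine O-acetyltransferase, an enzyme of methionine synthesis in microbes, had 21.2 and 26.6 CPM at 15 min, against 85.9 CPM at 0 min and 27.8 CPM in the control. CCRYP_006244, named acetate CoA-transferase, which moves CoA between short organic acids, had 64.7 and 83.6 CPM at 15 min, against 144 CPM at 0 min and 67.9 CPM in the control. In all 4 genes the 15 min columns were near the control and the 0 min column stood above these columns. Some later columns were near the 0 min level, with 140 and 161 CPM at 30 min for CCRYP_006244 and 28.8 CPM at 1 h for CCRYP_016095. In a column of 4 h, CCRYP_009375 had 38.6 CPM and CCRYP_001533 had 81.1 CPM. Both columns of 8 h were below the 0 min column in all 4 genes.

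The other named lower genes had log2 fold changes between -2.28 and -1.08. CCRYP_006587, named for a tolloid-like protein, a metalloprotease of animals, had 4.54 and 5.40 CPM at 15 min, against 24.0 CPM at 0 min and 10.3 CPM in the control, so here the 15 min columns were also below the control. It reached 51.5 and 45.0 CPM at 4 h. CCRYP_014337, named only as MJ1055, had 148 and 183 CPM at 15 min, against 415 CPM at 0 min and 142 CPM in the control. CCRYP_015889 (a nucleoside diphosphatase), CCRYP_010360 (SYM1, a mitochondrial membrane protein of yeast), CCRYP_019255 (SelO, which attaches AMP to proteins), CCRYP_019594 and CCRYP_005548 (a probable phosphatase) had log2 fold changes of -1.38, -1.25, -1.17, -1.09 and -1.08. Against the control they had 0.40, 0.26, -0.08, 0.09 and 0.15 at 15 min, and 1.78, 1.51, 1.09, 1.18 and 1.23 at 0 min. In these genes the 15 min columns were thus near the control and the 0 min column was above it.

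Of the lower genes without a protein name, the 5 lowest were CCRYP_017477, CCRYP_013532, CCRYP_000683, CCRYP_011565 and CCRYP_007767. CCRYP_017477 had 1 and 1 count at 15 min, against 20 counts at 0 min and 2 counts in the control. The scaled ratio of 15 min to 0 min was 0.0551, with an exact 95% interval of 0.00624 to 0.227 for counting error only. CCRYP_013532 had 8 and 5 counts at 15 min, against 58 counts at 0 min and 24 counts in the control, so the 15 min columns were also below the control. CCRYP_000683, CCRYP_011565 and CCRYP_007767 had log2 fold changes of -2.58, -2.46 and -2.25. For CCRYP_000683 the 15 counts in the control matched the 15 and 11 counts at 15 min, against 86 counts at 0 min.

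Most other lists of genes held no called gene at this time. Of 27 lists made from words in the protein names, 19 had 0 calls and 8 had at least 1, and 16 called genes belonged to any list. Over all tested genes 0.952% were called, so lists of these sizes would hold few calls or none at that share. Ribosomal proteins, which build the machinery of translation, had 0 of 112 called, with a median log2 fold change of 0.24 and both 15 min columns were above 0 min in 51 genes and below it in 10. Over all tested genes those shares were 42.7% and 31.8%. Translation factors and tRNA ligases had 0 of 127 called and a median of 0.21. Chaperones, which refold damaged proteins, had 0 of 100 called and a median of 0.21. Light-harvesting proteins, which feed light energy into photosynthesis, had 0 of 37 called and a median of -0.17. Protein kinases had 0 of 225 called and a median of -0.04. With library size alone as the scaling, each of these medians was lower by about the shift of all genes given above.

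Calcium signalling, which carries osmotic signals in many cells, had 0 of 68 called and a median of 0.04. CCRYP_013470, named for a calcium-binding protein of Arabidopsis, was closest to the threshold there, at 1.01 ± 0.25 (SE; edgeR's quasi-likelihood test, adjusted p = 0.0524). In the list of osmolyte and amino acid metabolism, 2 of 83 tested genes were called, namely the proline symporter CCRYP_014519 and the amino acid transporter CCRYP_000833, in opposite directions. The words of that list miss some called enzymes described above, such as CCRYP_007910 (phosphoserine aminotransferase), CCRYP_001533 (homoserine O-acetyltransferase) and CCRYP_016095 (inositol oxygenase). Fatty acid and lipid metabolism had 2 of 200 called, CCRYP_001740 higher and CCRYP_006244 lower. Over all tested genes the share called was 0.952%. A count of 0 called genes at this replication does not show that a list stayed level.

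**Figure D3:**
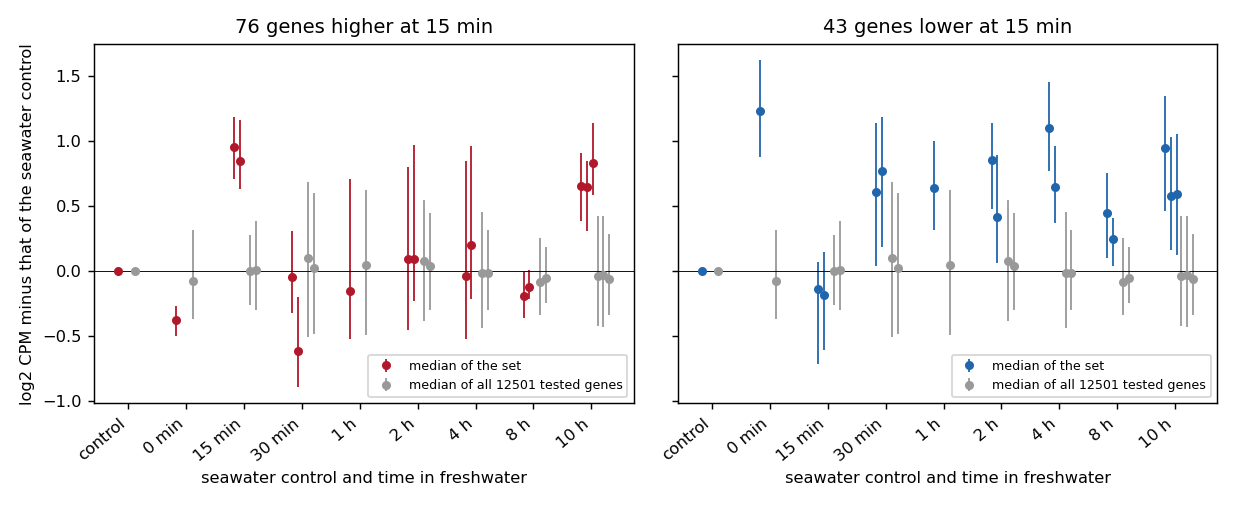
Median (points) and quartiles (bars) of log2 CPM minus that of the seawater control, for the higher set, the lower set and all tested genes, in each of the 16 independent columns by time in freshwater. The higher set stands at 0.95 and 0.85 at 15 min and again at 0.65 to 0.83 at 10 h, and the lower set is highest at 0 min, at 1.23.

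The columns after 15 min show what followed. They shared the estimate of the spread and the filter with the comparison that chose the genes. The higher set had median differences from the seawater control of -0.04 and -0.61 in the 30 min columns and -0.15 at 1 h, on the log2 CPM scale. At 2 h the medians were 0.09 and 0.10, at 4 h -0.04 and 0.20, and at 8 h -0.19 and -0.12. At 10 h they were 0.66, 0.65 and 0.83. All tested genes had medians between -0.02 and 0.10 over the columns from 15 min to 4 h and between -0.08 and -0.03 at 8 and 10 h. The set as a whole was therefore above the control at 15 min and 10 h and near or below it in the columns of 30 min, 1 h and 8 h.

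The lower set did not mirror this course. Its medians from the control were -0.14 and -0.19 at 15 min, against 1.23 at 0 min. In every column from 30 min on the median was positive, from 0.25 in a column of 8 h to 1.10 in a column of 4 h. In 31 of 43 lower genes all 4 columns of 2 h and 4 h were above the control, against 28.6% of all tested genes, and in 0 of 43 all 4 were below it. At 30 min against the seawater control, edgeR's quasi-likelihood test called 15 of 43 higher and 4 lower, against 14% and 16.7% of all tested genes. Without replicate 3 at 30 min the 15 became 9.

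**Figure D4:**
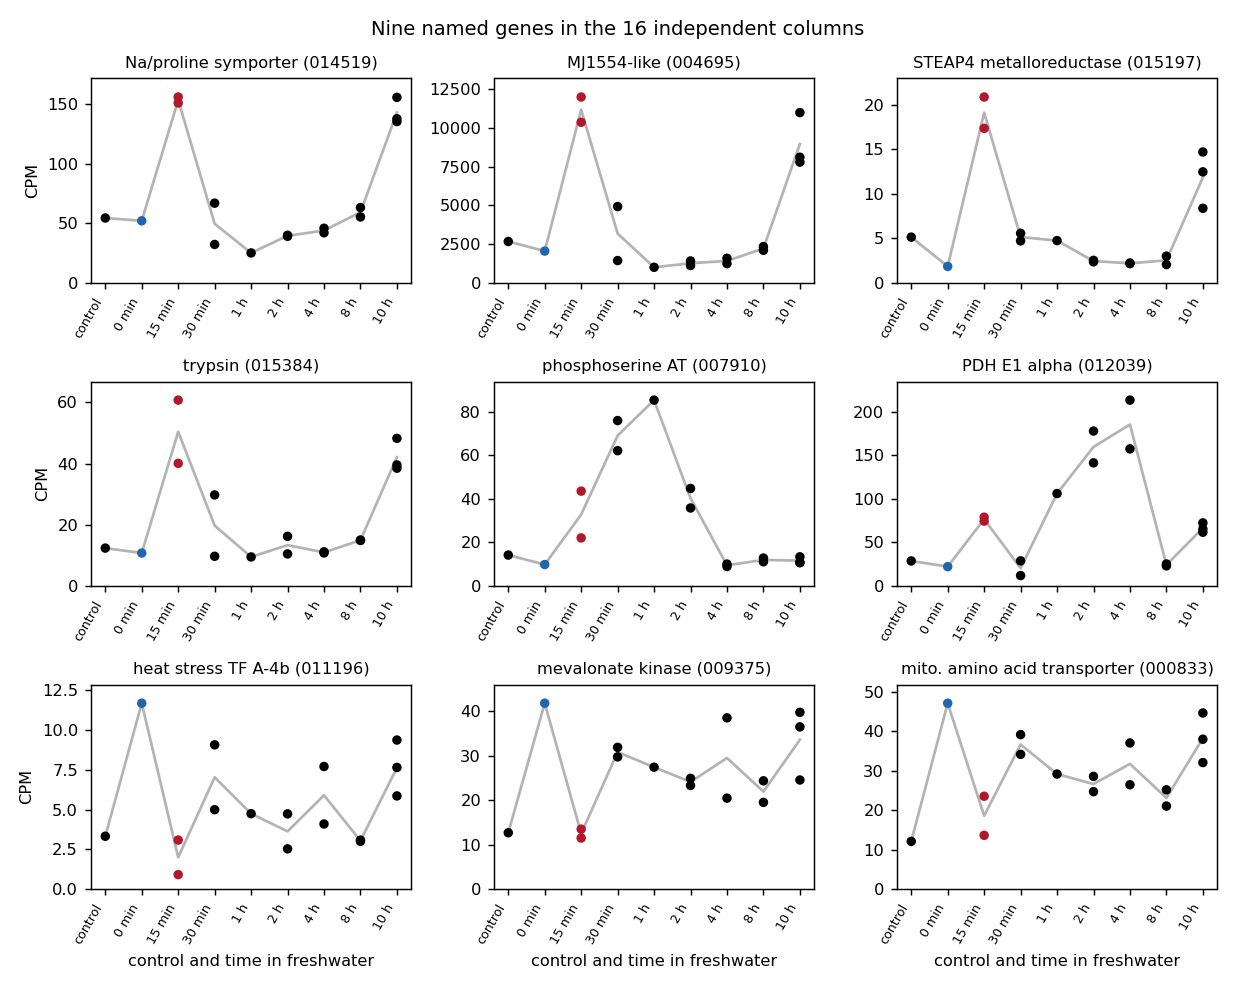
CPM of 9 named genes in the 16 independent columns (points; red 15 min, blue 0 min) with lines through the group means. The upper row and the trypsin CCRYP_015384 are high at 15 min and 10 h, CCRYP_007910 is highest at 1 h, CCRYP_012039 is highest at 4 h, and the 3 genes in the lowest row are high at 0 min.

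Individual higher genes followed separate courses after 15 min. In 53 of 76 the columns of 2 h and 4 h were all below both 15 min columns, and in 16 of 76 they were all above them, against 13.9% and 13% of all tested genes. The genes were chosen as high in those 15 min columns, so the first of these counts is partly fixed by the choice. The named genes among these 16 were CCRYP_012039 (pyruvate dehydrogenase), CCRYP_010390 (pyruvate carboxylase), CCRYP_001740 (malonate-CoA ligase), CCRYP_006220 and CCRYP_011391 (prolyl 4-hydroxylases), CCRYP_020427 (opine dehydrogenase), CCRYP_002835 (MEAK7) and CCRYP_013766 (transitional endoplasmic reticulum ATPase). Against the control, 29 of 76 had all 4 columns of 2 h and 4 h above it and 24 of 76 had all 4 below it, against 28.6% and 27.7% of all tested genes. CCRYP_001740, for instance, had 190 and 113 CPM at 30 min, 557 CPM at 1 h and 795 and 1020 CPM at 4 h. CCRYP_006049, the serotonin transporter name, had 257 and 171 CPM at 30 min, 115 CPM at 1 h and 189 and 223 CPM at 4 h. At 30 min against the control, 8 of 76 were called higher and 11 lower, against 14% and 16.7% of all tested genes. The genes with names among the 8 were CCRYP_020254 and CCRYP_007910 of serine synthesis, CCRYP_001528 (neutral amino acid transporter) and CCRYP_002483 (trypsin). Their log2 fold changes were 3.43, 2.29, 0.94 and 0.75 (edgeR's quasi-likelihood test, adjusted p = 0.00113, 0.000279, 0.0058 and 0.038).

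The columns of 8 h and 10 h are not among those compared at 15 min, but they shared the estimate of the spread and the filter that decided the calls. At 10 h against 8 h, edgeR's quasi-likelihood test called 51 of the 76 higher genes higher and 0 lower, against 2.77% and 0.888% of all tested genes. Their median log2 fold change was 0.81, against 0.01 for all tested genes, and 73 of 76 were positive. In 72 of 76 all 3 columns of 10 h were above both columns of 8 h, against 19.4% of all tested genes. Without replicate 2 of 8 h, 15 of the 76 were called, and without replicate 3 of 8 h, 14 were called. Over all tested genes, 457 (3.66%) were called with all columns, 130 without replicate 2 of 8 h and 54 without replicate 3 of 8 h. So that the choice of genes and the test shared no column, genes were chosen again without the 8 h and 10 h columns. In a fit of those 5 columns alone, 10 h was then compared with 8 h. The choice then held 49 higher genes, 46 of them among the 119. Of the 49, edgeR's quasi-likelihood test called 40 higher and 0 lower at 10 h against 8 h, against 4.07% and 2.3% of all genes tested there, with a median log2 fold change of 0.86. With 1 of the 5 columns left out, 29 to 42 were called higher. The comparison of 10 h with 8 h was added after the 15 min genes had been seen over all columns. The separate fit does not make that choice independent of these data. No label gives the time of day at collection.

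**Figure D5:**
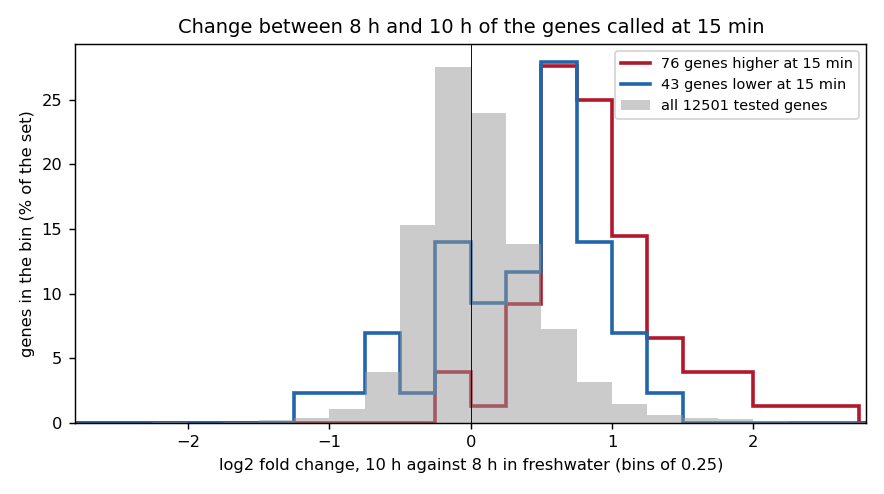
Share of genes by log2 fold change of 10 h against 8 h, in bins of 0.25, for the higher set, the lower set and all tested genes. The higher set is centred at 0.81, the lower set at 0.51 and all tested genes at 0.01.

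Named genes were among those that rose at 10 h. CCRYP_014519, the proline symporter, had a log2 fold change of 1.27 ± 0.20 at 10 h against 8 h (SE; edgeR's quasi-likelihood test, adjusted p = 0.00102). CCRYP_015197, the metalloreductase, had 2.25 ± 0.38 (SE; edgeR's quasi-likelihood test, adjusted p = 0.00153), and CCRYP_004695 had 2.01 ± 0.38 (SE; edgeR's quasi-likelihood test, adjusted p = 0.0079). CCRYP_004695 had 8099, 7784 and 10977 CPM at 10 h, against 2100 and 2338 CPM at 8 h. CCRYP_007868, the venom allergen name, had 42.4, 44.7 and 42.4 CPM at 10 h, against 14.9 and 7.21 CPM at 8 h. The serine synthesis genes were not called in that comparison, with -0.17 ± 0.42 for CCRYP_020254 and -0.06 ± 0.27 for CCRYP_007910 (SE). Of the lower set, 5 of 43 were called higher and 2 lower at 10 h against 8 h, against 2.77% and 0.888% of all tested genes. The median of the lower set was 0.51, against 0.01 for all tested genes. In 21 of 43 all 3 columns of 10 h were above both columns of 8 h, against 19.4%. When chosen without the 8 h and 10 h columns, 13 of 55 lower genes were called higher and 3 lower, against 4.07% and 2.3%. A rise at 10 h was therefore not limited to the higher set.

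In the authors' deposited table, 3552 of 10569 genes had an adjusted p-value below 0.05 at 15 min. All 119 genes called here were among them, and all 119 had the opposite sign in the authors' deposited table, where a positive value stood for a higher count at 0 min in these genes. The fit of all 27 columns as deposited, copies and means included, called 4007 genes.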

How the data were processed

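The authors deposited raw read counts per gene and, for 7 times against 0 min, log2 fold changes with adjusted p-values, per the file headers. The submitters' processing notes name STAR 2.7.3a, HTSeq 0.11.3 and edgeR, with no role. Without a stated strand setting, overlapping and antisense genes are uncertain. No source used here gives the genome build. No gene identifier matched the reference gene table (0 of 14109), so no position or sequence is given. Columns matched to no sample numbered 0.

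Of 21250 genes, 12501 passed a filter on low counts (filterByExpr with min.count of 10 and min.total.count of 15). The model was fitted in edgeR 4.0.16 under R 4.3.3 to the 16 independent columns after TMM scaling. It had a coefficient for each group and 7 residual degrees of freedom, and quasi-likelihood dispersions were estimated robustly. Limma was version 3.58.1. P-values were adjusted by Benjamini-Hochberg over all tested genes. Log2 CPM used a prior count of 2. The method was also run on simulated data drawn with the same spread for every gene, which is simpler than these data. No result given here rests on that run. Rows that name no gene, such as reads placed at several sites, entered no library size.

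The named genes were those called with both 15 min columns on 1 side of the 0 min column and at least 10 counts in the higher group. They were the 15 highest and 15 lowest with a protein name (14 lower genes had one) and the 5 highest and 5 lowest without. Members and lists were chosen with earlier results of these data known. Alternatives were DESeq2 1.42.0, limma-voom, other scalings, no filter, left-out columns, other 0 min columns, all 27 columns, fewer groups and a replicate block.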

Additional observations from a re-analysis of the deposited data

How the results depend on the processing

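At 15 min against 0 min, each of the 119 called genes that was compared kept its sign under every alternative run. These were 107 of 107 in DESeq2 and 119 of 119 in the others. In every called gene both 15 min columns lay on 1 side of the 0 min column, so a kept sign was largely fixed by the choice. The count of 119 (76 higher) was 205 (137 higher) with DESeq2, 431 (208) with no filter, 4007 (2111) with all 27 columns, 380 (195) with groups up to 1 h only and 187 with the 30 min columns left out. Leaving out the 8 h and 10 h columns gave 105 (49 higher). These last 2 were added after seeing the data. Library size only gave 39 higher. Leaving out single columns gave 4 to 222 genes (4 to 136 higher). The lowest numbers came without a 15 min column. They were 187 and 192 when 1 column of 30 min was left out and 221 and 222 when 1 column of 4 h was. Of the 119 genes, 2 stayed called without replicate 1 of 15 min and 8 without replicate 3. Of the 39 genes named by the rule, 18 lost their call with limma-voom, 10 with library size only, 10 with the replicate block, 6 with groups up to 1 h and 3 with another column of 0 min. The replicate block gave 106, of which 77 were among the 119. No pairing could be checked, because the 0 min column shares no replicate number with the 15 min columns. Against the seawater control, the 11 genes at 15 min became 105 with DESeq2, 252 with no filter, 4050 with 27 columns, 132 with the replicate block, 137 with groups up to 1 h, 118 without the 30 min columns and 5 to 13 without a column of 15 min. The 0 genes at 0 min became 56, 228, 5355, 9, 233 and 19 under the same 6 alternatives, 79 with library size only, 31 with the mean of copies, 34 and 25 with replicates 1 and 3 of 0 min, and 25 without the 8 h and 10 h columns. From 15 to 30 min the count was 3024, or 7346 with 27 columns, and 467 to 2416 without single columns. The 51 higher genes called at 10 h against 8 h became 14 to 48 without single columns, and the 15 lower genes called at 30 min became 31 with 27 columns and 9 to 17 without single columns. Where no value above shows the cause, the cause was not tested. Depth limits most the genes with few counts, such as CCRYP_017477 and CCRYP_020254, whose counting intervals are wide.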

Other observations

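Several genes were called at 15 min against the seawater control but not against 0 min, and were named after their values were seen. CCRYP_007721, named calcineurin subunit B type 1, the calcium-binding subunit of a phosphatase that acts in calcium signalling, had 58 and 47 counts at 15 min, against 20 counts at 0 min and 6 counts in the control. Its log2 fold changes at 15 min were 3.27 ± 0.53 against the control and 1.53 ± 0.43 against 0 min (SE; edgeR's quasi-likelihood test, adjusted p = 0.00639 and 0.0794). CCRYP_012713, named chaperone ClpB1, which in plants pulls aggregated proteins apart after heat, had 435 and 355 CPM at 15 min, against 239 CPM at 0 min and 145 CPM in the control. Its log2 fold changes at 15 min were 1.45 ± 0.26 against the control and 0.73 ± 0.24 against 0 min (SE; edgeR's quasi-likelihood test, adjusted p = 0.0118 and 0.177). In both genes the 0 min column lay between the control and the 15 min columns.

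The genes CCRYP_003637, CCRYP_011277 and CCRYP_006760, which have no protein name, were also called against the control and showed most of their difference at 0 min. Their log2 fold changes from the control were 2.50, 1.40 and 1.37 at 15 min and 2.33, 1.18 and 0.97 at 0 min. CCRYP_000896 and CCRYP_016389 had 1.69 and 1.33 at 15 min and 0.52 and 0.67 at 0 min. CCRYP_006759, called against both columns, had 716 and 735 CPM at 15 min, against 358 CPM at 0 min and 238 CPM in the control.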
